A study of Mus musculus with 6 samples.

Results

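The integrated stress response was followed through 10 of its genes, Chac1, Gdf15, Atf4, Ddit3, Trib3, Asns, Psat1, Sesn2, Atf5 and Ddit4, in the skin of mice lacking Sox4. The members were chosen by name with their KO and WT array values in these same skins already known (log2 signal, KO minus WT), so their differences between the groups are given as a description and without a test. All 10 were measured, on 12 probes, among 22822 genes and unnamed transcripts that passed the filter on dim probes, and each was well above background on all 6 arrays. The filter therefore removed no member.

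The study profiled whole skin labelled as telogen, when hair follicles rest, on 1-colour Agilent arrays, with 3 KO and 3 WT male mice. KO skins carried a conditional knockout of Sox4 in skin and came from mice aged 17, 18 and 16 weeks (replicates 1, 2 and 3). WT skins came from wildtype mice aged 20, 19 and 18 weeks in the same order. Both groups were untreated, on a mixed C57Bl6/129Sv background (75:25), and no source used here names the driver of the deletion. Slide 1 held KO replicate 3 and WT replicate 1, slide 2 held KO replicate 1 and WT replicates 2 and 3, and slide 3 held KO replicate 2. The stated aim was to learn what Sox4, a transcription factor of the SoxC group, contributes to skin homeostasis.

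In the integrated stress response, kinases that sense amino acid shortage, unfolded protein, haem shortage, mitochondrial faults or viral RNA phosphorylate the translation factor eIF2. General translation then slows while the mRNA of Atf4 is translated more, and the ATF4 protein switches on genes of amino acid supply, redox balance and, under lasting stress, cell death. The arrays measured mRNA only, so neither eIF2 phosphorylation nor ATF4 protein was observed. In skin, as in other tissues, several of these genes also answer to other regulators, among them p53 for Gdf15 and Sesn2 and glucocorticoids and low oxygen for Ddit4.

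Promoter windows are shown for the members that stood apart and for those holding the letters of the ATF4 response element. The sequences are from RefSeq on build GRCm38.p6, cover 250 bases before to 50 after an annotated start, and run 5′ to 3′ on the gene's strand. Capitals mark TGATGNAA, the core of the C/EBP-ATF response element, or TGACGCAA, a related ATF and C/EBP composite, each searched on both strands. Chac1 lies on the plus strand at chr2:119350992-119351291, Gdf15 on the minus strand at chr8:70632407-70632706 (the upstream one of its 2 listed windows), and excerpts are given for Trib3 (minus strand, chr2:152344028-152344057) and Asns (minus strand, chr6:7693214-7693243).
Chac1: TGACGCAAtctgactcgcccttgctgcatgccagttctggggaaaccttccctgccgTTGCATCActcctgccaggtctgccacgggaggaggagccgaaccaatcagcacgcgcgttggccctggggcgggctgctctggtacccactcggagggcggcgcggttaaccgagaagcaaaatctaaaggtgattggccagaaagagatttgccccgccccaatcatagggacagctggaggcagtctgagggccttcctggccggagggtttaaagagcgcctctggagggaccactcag
Gdf15: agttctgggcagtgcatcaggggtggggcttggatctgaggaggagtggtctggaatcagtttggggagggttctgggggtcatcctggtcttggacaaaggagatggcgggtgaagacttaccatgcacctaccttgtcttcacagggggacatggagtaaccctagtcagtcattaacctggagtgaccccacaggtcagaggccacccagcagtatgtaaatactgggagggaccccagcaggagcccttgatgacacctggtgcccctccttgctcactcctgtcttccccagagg
Trib3: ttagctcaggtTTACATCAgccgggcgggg
Asns: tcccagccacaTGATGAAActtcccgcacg

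The core TGATGNAA stood in the windows of 3 of the 10 members, Chac1, Trib3 and Asns, and in 4.51% of all 27025 genes with such a window. Counted over windows it was 3 of 13 for the members and 3.97% of all 32851. It began 193 bases before the start in Chac1, 23 before it in Asns and 14 bases after it in Trib3. Chac1 alone among the members also held TGACGCAA, at the first 8 bases of its window, a match found in 0.490% of all windows. No member window held TGACGTCA (1.79% of all windows), the endoplasmic reticulum stress element, CCAAT and CCACG with a fixed spacer (0.119%), or AACAAAG, a Sox recognition core (5.85%). The 3 genes that shared the TGATGNAA match did not share a direction in the arrays: Chac1 was higher in KO skin while Trib3 and Asns overlapped between the groups. These matches describe letters in short windows and not bound sites.

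Between 52.1% and 66.4% of probes were well above background on an array, the processed signal had its 75th percentile at 379.8 to 605 units, and no spot was saturated. The precision of every value is limited by the number of arrays, and since the labels do not say how the animals relate, the spread is that between these 6 skins. Sox4, the deleted gene, was at −2.94, −2.88 and −3.05 on the KO arrays, against 0.41, 0.65 and 0.75 on the WT arrays (log2 relative to each array's 75th percentile, the scale of all levels below). It was low on every array labelled KO (difference −3.56, SE 0.13, limma adjusted p = 0.00135). Markers of epidermis (11 of 12 tested, Krt5 and Krt14 among them) and fibroblasts (8 of 8) were well above background on all arrays. KO replicates 1 and 2 went against the telogen label: Krt71, an inner root sheath keratin of growing follicles, read 7.22, 6.73 and −2.27 in KO, against −2.39, −1.19 and −1.59 in WT. Results without these 2 skins are given below. In all, 5 of 22822 genes passed an adjusted p of 0.05 in limma (0.0219%), with 0.00438% higher and 0.0175% lower in KO. The groups were without overlap at 4413 genes (19.3%), 7.56% higher and 11.8% lower in KO.

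Chac1 and Gdf15 were the members that separated the groups, in opposite directions. Chac1, higher in KO, encodes a γ-glutamyl cyclotransferase that breaks down glutathione in the cytosol. Gdf15, lower in KO, encodes a secreted stress cytokine of the TGF-β superfamily that acts on appetite through a receptor in the brainstem. The other 8 members overlapped between the groups, with log2 differences from −0.38 to 0.017. The count of members without overlap was thus 2 of 10, beside 19.3% of all genes, and since the contrast was used in choosing the members nothing is read from it. The median difference of the 10 was −0.12, against −0.09 for all genes.

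In order of replicate number, Chac1 stood at 3.02, 4.31 and 1.96 in KO skins, against 1.37, 1.55 and 1.11 in WT skins. In processed signal this was 4926, 10054 and 1916 units in KO, against 981.3, 1428 and 940.7 units in WT. Every KO skin lay above every WT skin, but KO replicate 3 lay only slightly above WT replicate 2, while KO replicate 2 stood far above the rest. The means were 3.10 ± 1.18 in KO and 1.34 ± 0.22 in WT (SD, n = 3 each), a log2 difference of 1.75 (SE 0.55), or 3.37-fold. By size of difference Chac1 ranked at position 276 of 22822. Its spread among KO skins was larger than that of 97.9% of genes, whereas its WT spread exceeded that of 61.3%.

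The size of the Chac1 difference depended on which KO skins entered. Within slide 1 it was 0.59, and within slide 2 it was 1.70. A fit with the slide as a block gave 1.22. This fit only combines the differences of slides 1 and 2, since KO replicate 2, alone on slide 3, has no weight in it. Leaving out KO replicates 1 and 2 gave 0.61. With age as a covariate the difference was 3.06, and between the 18-week skins alone, 1 KO and 1 WT, it was 3.20 (a subset chosen after the values were seen). The groups shared only the age of 18 weeks, in KO replicate 2 and WT replicate 3. The age fit thus relies on a straight line through ages that the groups mostly do not share. Chac1 was higher in KO under all of these settings.

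Gdf15 stood at −2.91, −3.16 and −2.62 in KO skins, against −1.41, −1.10 and −1.34 in WT skins. The processed signals were low throughout, 80.6, 56.7 and 80.3 units in KO and 142.8, 226.8 and 173 units in WT. The gap between the lowest WT skin and the highest KO skin was wide relative to the spread within either group. Means were −2.90 ± 0.27 in KO and −1.28 ± 0.16 in WT (SD, n = 3 each), which is a log2 difference of −1.61 (SE 0.17), 3.06-fold higher in WT. Gdf15 ranked at position 350 by size of difference.

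The Gdf15 difference was −1.21 within slide 1, −1.69 within slide 2 and −1.48 when slides were blocked, again with no weight from KO replicate 2. It was −1.33 without KO replicates 1 and 2 and −1.83 between the 18-week skins. Normexp correction of the median spot signals with quantile normalization, which changes the signal, the background correction and the scaling together, gave −1.04. With age as a covariate the value was −1.92, under the same limit of shared ages. Because Gdf15 and other members were measured in whole skin, fewer cells of a type and less RNA per cell cannot be told apart.

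**Figure D1:**
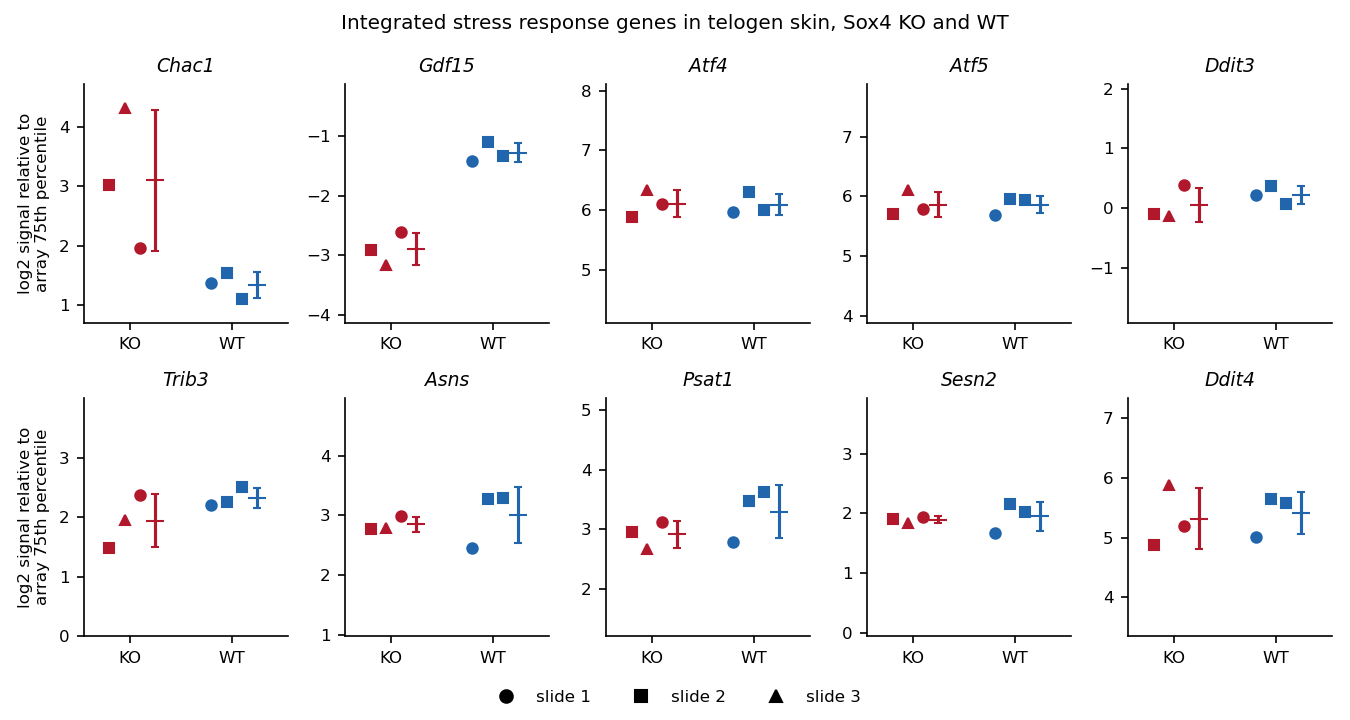
Log2 signal relative to the array's 75th percentile (y axis) for each of the 10 members in KO (red) and WT (blue) skins; each point is 1 array, its shape gives the slide, and bars are the mean ± SD of 3 arrays. Chac1 (1.96 to 4.31 in KO, 1.11 to 1.55 in WT) and Gdf15 (−3.16 to −2.62 in KO, −1.41 to −1.10 in WT) are the panels without overlap.

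Age ran alongside both genes among the KO skins. At 16, 17 and 18 weeks the KO skins read 1.96, 3.02 and 4.31 for Chac1 and −2.62, −2.91 and −3.16 for Gdf15, so the oldest KO skin was farthest from WT for each gene. At 18, 19 and 20 weeks the WT skins read 1.11, 1.55 and 1.37 for Chac1 and −1.34, −1.10 and −1.41 for Gdf15, with no such order. Krt71, the keratin of growing follicles given above, read −2.27, 7.22 and 6.73 in the KO skins at 16, 17 and 18 weeks. The KO skins also lay on different slides. Age, slide and follicle growth therefore cannot be told apart within KO.

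The transcription factors of the response did not separate the groups. Atf4, the factor that gives the pathway its output, was at 5.88, 6.33 and 6.11 in KO, against 5.97, 6.30 and 6.00 in WT, a difference of 0.017 (SE 0.16). Its dimmer probe had 0.49, 0.70 and 0.31 in KO against 0.20, 0.61 and 0.37 in WT, a difference of 0.11. Both probes thus placed KO skins within or close to the WT range.

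Atf5, a related factor linked to the mitochondrial unfolded protein response, was at 5.70, 6.10 and 5.79 in KO, against 5.70, 5.95 and 5.94 in WT, a difference of 0.0019 (SE 0.15). Ddit3 encodes CHOP, the factor that carries lasting stress towards cell death. It read −0.10, −0.14 and 0.38 in KO, against 0.22, 0.37 and 0.07 in WT, a difference of −0.17 (SE 0.18). KO replicates 1 and 2 were the lowest skins for Ddit3 and KO replicate 3 the highest, so the KO skins bracketed the WT skins.

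Trib3, a pseudokinase induced by ATF4 and CHOP that feeds back on them, was at 1.49, 1.96 and 2.38 in KO, against 2.21, 2.25 and 2.51 in WT. The difference was −0.38 (SE 0.24), and KO replicate 3 lay inside the WT range while KO replicates 1 and 2 lay below it. Trib3 was thus lowest in the 2 KO skins in which Chac1 was highest. The difference was −0.89 on slide 2 and 0.17 on slide 1.

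The amino acid enzymes also overlapped between the groups. Asns, asparagine synthetase, read 2.77, 2.79 and 2.99 in KO, against 2.46, 3.27 and 3.29 in WT, a difference of −0.16 (SE 0.24). Psat1, the aminotransferase of serine synthesis, read 2.96, 2.67 and 3.12 in KO, against 2.79, 3.48 and 3.62 in WT, a difference of −0.38 (SE 0.25). For both, WT replicate 1 lay well below the other WT skins, which in turn lay above every KO skin. The dimmer Psat1 probe gave −0.68, −1.38 and −1.32 in KO, against −1.27, −0.37 and −0.48 in WT, a difference of −0.42, again with WT replicate 1 apart from the other WT skins.

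The growth brakes of the pathway overlapped between the groups. Sesn2, a leucine sensor that restrains mTORC1, read 1.91, 1.83 and 1.95 in KO, against 1.67, 2.15 and 2.03 in WT, a difference of −0.05 (SE 0.15). Its spread among KO skins was among the narrow ones, wider than that of 9.30% of genes. Ddit4, also called REDD1 and a brake on mTORC1, read 4.88, 5.87 and 5.20 in KO, against 5.01, 5.64 and 5.57 in WT, a difference of −0.09 (SE 0.30). Its KO spread exceeded that of 89.4% of genes, with KO replicate 2 the highest of the 6 skins and KO replicate 1 the lowest.

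WT replicate 1 was the lowest WT skin for 7 of the 8 members other than Chac1 and Gdf15, all but Ddit3. Without it, 5 of the 10 members were without overlap, beside 40.9% of all genes, with Asns, Psat1 and Sesn2 added, lower in KO. Without KO replicate 3 they numbered 4, beside 37% of all genes, with Ddit3 and Trib3 added, also lower in KO. Both shares are near those of all genes. The slides divided the 8 in the same way: all 8 differences were positive on slide 1 (0.09 to 0.53), where WT replicate 1 was the WT skin, and all 8 were negative on slide 2 (−0.89 to −0.18). Of all genes, 54.3% were positive on slide 1 (median 0.022) and 63.8% negative on slide 2 (median −0.11).

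**Figure D2:**
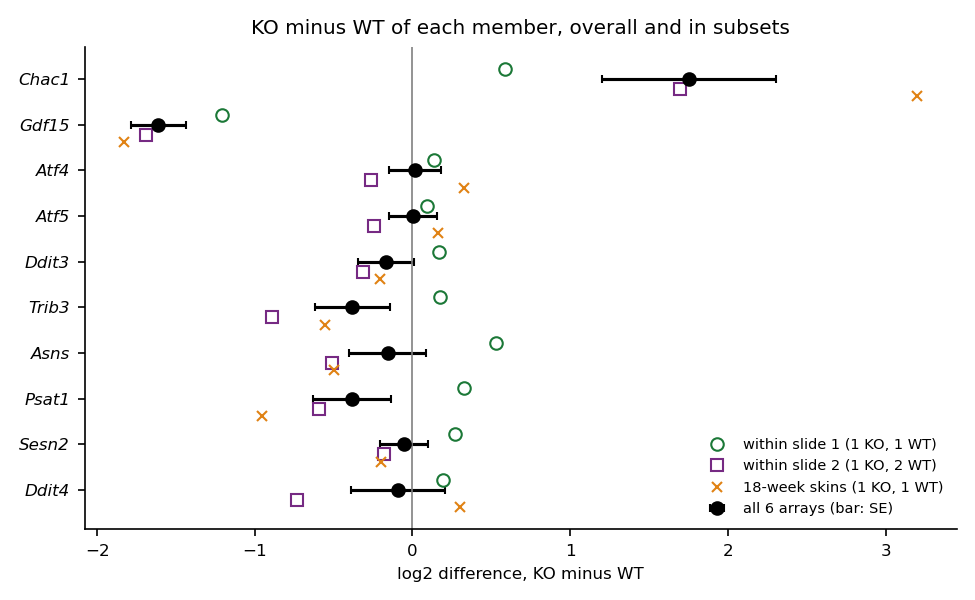
Log2 difference KO minus WT (x axis) of each member over all 6 arrays (black, bar = SE), within slide 1, within slide 2 and between the 18-week skins. Chac1 stays right of 0 and Gdf15 left of 0 in every subset, while the other 8 lie right of 0 on slide 1 and left of it on slide 2.

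Some of the 8 overlapping members varied together from skin to skin. Over the 6 arrays, Asns correlated with Sesn2 at r = 0.95 and with Psat1 at 0.90, and Atf5 correlated with Ddit4 at 0.99 and with Atf4 at 0.82. Atf4 and Psat1, by contrast, stood at −0.02. These are descriptions over 6 skins that share hybridization and scaling, the selected ones of 45 pairs. Chac1 and Gdf15 form separate clusters by group, so no pooled correlation between them is given.

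The genes most like Chac1 over the 6 arrays, among 14255 named genes, were Oma1 (r = 0.995), Abcb8 (0.992), Kat2b (0.990), Spns3 (0.988) and Immt (0.987). Oma1, a protease of the mitochondrial inner membrane, read −1.05, −0.79 and −1.23 in KO, against −1.36, −1.32 and −1.35 in WT, so its range was far narrower than that of Chac1. Those most like Gdf15 were Pfkl (0.995), Klrb1b (0.994), Acsl4 (0.993), Fnbp1 (0.992) and Tes (0.989). Klrb1b, a receptor of natural killer cells, averaged −2.39 ± 0.25 in KO and −1.01 ± 0.011 in WT (SD, n = 3 each). These values rank likeness over KO and WT skins pooled, so separation between the groups enters them, and they carry no test. None of the 10 members was among the 5 nearest to either gene.

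Markers of some other cell types moved with both genes, and their part in the differences was not tested. Hair shaft and inner root sheath markers (10 of 14 tested, 9 of them well above background on all arrays) had scores of 6.19, 5.44 and −0.10 in KO, against −0.12, 0.27 and −0.12 in WT, where a score is the median over markers of the log2 level minus its WT mean. Their summed signal, in multiples of the 75th percentile, was 310.6, 207.4 and 3.81 in KO and 3.24 to 5.01 in WT. Krt25, Krt33b and Krt34 were well above background on 2 KO arrays and on no WT array. KO replicate 3, at the WT level of these markers, had the lowest Chac1 of the KO skins, 1.96, above the highest WT value, 1.55. For Gdf15, KO replicate 3 was at −2.62, below every WT skin. Without KO replicates 1 and 2, the other 8 members had differences from −0.21 (Ddit4) to 0.16 (Ddit3), Ddit3 and Trib3 (0.05) turning positive, and 3 of 10 members (Chac1, Gdf15 and Ddit3) were without overlap, beside 49.1% of all genes.

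Skeletal muscle markers (14 of 14 tested, all well above background throughout) scored 1.77, 2.08 and 1.53 in KO, against 1.20, −0.32 and −0.85 in WT, with summed signals of 2881 to 3720 in KO and 672.2 to 2558 in WT. WT replicate 1 had the WT muscle score nearest to KO, below that of every KO skin. Its Chac1 was 1.37, and its Gdf15, −1.41, was the WT value nearest to KO. T and natural killer cell markers (11 of 12 tested, 10 well above background on all arrays) scored −0.98, −1.06 and −1.10 in KO, against −0.12, −0.03 and 0.17 in WT. Their summed signal was 8.89 to 11.1 in KO and 16.4 to 18.6 in WT, without overlap. All 11 were lower in KO without overlap, Klrb1b among them, beside 11.8% of all genes. Of the 11, 1, Cd3g, passed the adjusted p, beside 0.0175% of all genes lower in KO. Macrophage markers (11 of 12 tested) had overlapping scores of −0.21, −0.30 and −0.12 in KO, against −0.06, −0.35 and 0.28 in WT. Of these 11, 1 was higher and 2 were lower in KO without overlap, beside 7.56% and 11.8% of all genes. Sebocyte markers (9 of 9 tested) had scores of −0.29, −0.76 and −0.35 in KO, against −0.21, 0.15 and 0.05 in WT. Of the 9, 4 were lower in KO without overlap, beside 11.8% of all genes. Fibroblast markers (8 of 8 tested) scored −0.29, −0.15 and −0.05 in KO, against 0.10, −0.04 and −0.03 in WT. Of the 8, 1 was lower in KO without overlap, near the 11.8% of all genes. The muscle, T and natural killer cell and sebocyte scores thus separated the groups, as Chac1 and Gdf15 did. The fibroblast scores nearly touched (−0.046 in KO replicate 3, −0.039 in WT replicate 2). Scores overlapped for epidermis (−0.24 to −0.17 in KO, −0.25 to 0.25 in WT) and adipocytes (−0.61 to 0.16 in KO, −0.87 to 0.38 in WT). They also overlapped for neutrophils (−0.45 to 1.91 in KO, 0.13 to 0.31 in WT) and endothelium (−0.10 to 0.03 in KO, −0.05 to 0.06 in WT).

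**Figure D3:**
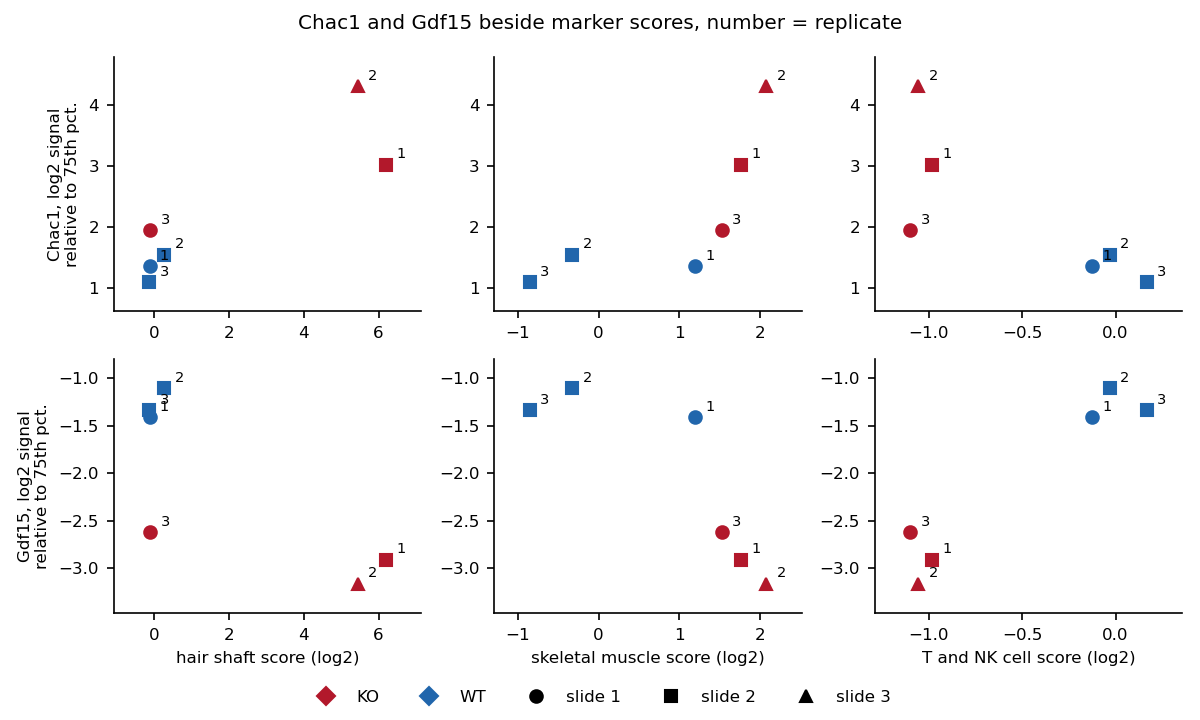
Level of Chac1 (upper row) and Gdf15 (lower row) on the log2 scale against the hair shaft, skeletal muscle and T and NK cell marker scores; each point is 1 array, red for KO and blue for WT, numbered by replicate, with shape for slide. KO replicate 3 sits with the WT skins in hair shaft score (−0.10), and WT replicate 1 sits near the KO skins in muscle score (1.20).

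The remaining pathway genes were taken from lists of known genes, with the 10 members removed. The lists were chosen with earlier results of these data known, so their p-values are given as a description. Their genes were fitted one by one in limma over all 22822 genes. None of them passed an adjusted p of 0.05 in either direction, beside 0.0219% of all genes. The lists share some genes, such as Psph, Pmaip1 and Atf3. An unadjusted p under 0.05 was reached by 11.8% of all genes (6.26% higher and 5.5% lower in KO).

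Of 44 other targets of ATF4 and CHOP, 39 were tested (without KO replicates 1 and 2, median −0.11 and 0 at an unadjusted p under 0.05). Their median difference was −0.08, near that of all genes, with 0 higher and 3 lower in KO at an unadjusted p under 0.05. The 3 were Pmaip1, which encodes the death-promoting protein NOXA (−0.55, SE 0.17, limma adjusted p = 0.336), Slc1a4, a transporter of neutral amino acids (−0.44, SE 0.17, limma adjusted p = 0.404), and Soat2, a cholesterol-esterifying enzyme (−0.54, SE 0.21, limma adjusted p = 0.414). Psph, the final enzyme of serine synthesis, differed by −0.53 (SE 0.23, limma adjusted p = 0.434). It read 2.66, 2.47 and 2.95 in KO, against 2.96, 3.65 and 3.04 in WT, so the groups nearly touched without overlapping. The hormone gene Fgf21 and the cystine carrier Slc7a11 were not well above background on any of the 6 arrays, Adm2 was on 1 KO array only, and Slc7a3 on 2 KO and 2 WT arrays.

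Cytosolic aminoacyl-tRNA synthetases, which load tRNAs with amino acids and include many ATF4 targets, were tested for 20 of 20 genes. Their differences ran from −0.27 (Hars, limma adjusted p = 0.484) to 0.16 (Iars, limma adjusted p = 0.555), and none had an unadjusted p under 0.05. Qars (−0.19) and Kars (0.12) came next by p. The median, −0.06, was close to that of all genes.

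Of the 20 genes of the eIF2 switch itself, all 20 were tested, with a median of −0.02. Dele1, the mitochondrial protein that relays stress in that organelle to the kinase HRI, read 1.35, 1.56 and 1.40 in KO, against 1.13, 1.02 and 1.04 in WT, a difference of 0.37 (SE 0.11, limma adjusted p = 0.320). It was the single gene of the list with an unadjusted p under 0.05. Oma1, the protease that cleaves DELE1 in that relay, differed by 0.32 (SE 0.14, limma adjusted p = 0.438). It was also higher in every KO skin than in any WT skin, by little in KO replicate 3 (−1.23, against −1.32 in WT replicate 2). Of the 20 genes, 3 were higher and 1 was lower in KO without overlap, beside 7.56% and 11.8% of all genes. The adaptor Nck1 differed by −0.17 (limma adjusted p = 0.567) and Eif2ak3, the kinase PERK of the endoplasmic reticulum, by −0.15 (limma adjusted p = 0.617).

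Genes of the unfolded protein response of the endoplasmic reticulum (chaperones, sensors, degradation and translocation genes) mostly had negative differences. Of 26 tested, 25 had negative differences, beside 64.1% of all genes, and the median was −0.16. At an unadjusted p under 0.05 there were 4 lower and 0 higher, and 7 were without overlap, all lower in KO, beside 11.8% of all genes. The 4 were Dnajc10, a disulfide reductase (−0.49, SE 0.13, limma adjusted p = 0.279), Ssr1, a subunit of the translocon-associated complex (−0.47, SE 0.12, limma adjusted p = 0.280), and the secreted factors Manf (−0.33, SE 0.11, limma adjusted p = 0.360) and Creld2 (−0.30, SE 0.11, limma adjusted p = 0.395). Without KO replicates 1 and 2 the list's median was −0.14 and 0 had an unadjusted p under 0.05. Ssr1 read 3.69, 3.84 and 3.70 in KO, against 4.05, 4.31 and 4.29 in WT.

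Genes of glutathione turnover and antioxidant defence, the process on which CHAC1 acts, held no gene that passed the test. Of 22 listed, 19 were tested, the median was −0.12, and none had an unadjusted p under 0.05. Srxn1, sulfiredoxin, had the smallest p (−0.23, SE 0.11, limma adjusted p = 0.454) and read 2.19, 2.18 and 2.34 in KO, against 2.51, 2.46 and 2.46 in WT. Nqo1 (0.36), Ggct (−0.38) and Anpep (−0.18) followed. Ggct encodes another γ-glutamyl cyclotransferase, which acts on γ-glutamyl dipeptides.

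No paralog or partner of a member passed the test. Of 22 listed, 19 were tested, with a median of −0.04 and, at an unadjusted p under 0.05, 1 higher (Ddit4l) and 0 lower in KO. Chac2, which encodes a slower glutathione-degrading relative of CHAC1, differed by 0.023 (SE 0.16, limma adjusted p = 0.953). Sesn1 differed by −0.04 (SE 0.16) and Sesn3 by 0.08 (SE 0.12). Trib1 differed by −0.15 (SE 0.14) and Trib2 by 0.31 (SE 0.16). The limma adjusted p of these Sesn and Trib genes ran from 0.498 for Trib2 to 0.917 for Sesn1. Atf3, a stress-induced relative of Atf4, differed by 0.57 (SE 0.64, limma adjusted p = 0.694).

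Ddit4l, the paralog of Ddit4 found in muscle, stood at 1.37, 1.26 and 1.38 in KO, against 0.90, −0.30 and −0.95 in WT. Its difference was 1.45 (SE 0.44, limma adjusted p = 0.319). It was called without WT replicate 1, where 303 of 22822 genes were called, against 5 with all arrays. WT replicate 1 was the WT skin nearest to KO for Ddit4l and for the muscle markers. Mstn, the muscle growth inhibitor of the same superfamily as Gdf15, differed by 2.40 (SE 1.13, limma adjusted p = 0.461). Phgdh, which starts the serine pathway that Psat1 continues, differed by −0.51 (SE 0.24, limma adjusted p = 0.462). Gfral, the receptor for GDF15, was well above background on no KO array and 1 WT array.

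Gdf15 and Sesn2 are also p53 targets, and their values are those above. Of 20 other p53 genes, 18 were tested, with a median of −0.06 and, at an unadjusted p under 0.05, 1 higher and 1 lower in KO. Ccng1, a cyclin induced by p53, differed by 0.83 (SE 0.26, limma adjusted p = 0.324). It read 3.27, 3.52 and 3.21 in KO, against 3.06, 2.30 and 2.13 in WT. Ccng1 was called without WT replicate 1, where 303 of 22822 genes were called. The lower one was Pmaip1, given above, while Bax, an effector of cell death, differed by −0.26 (limma adjusted p = 0.431) and Polk, a DNA polymerase, by 0.37 (limma adjusted p = 0.449).

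**Figure D4:**
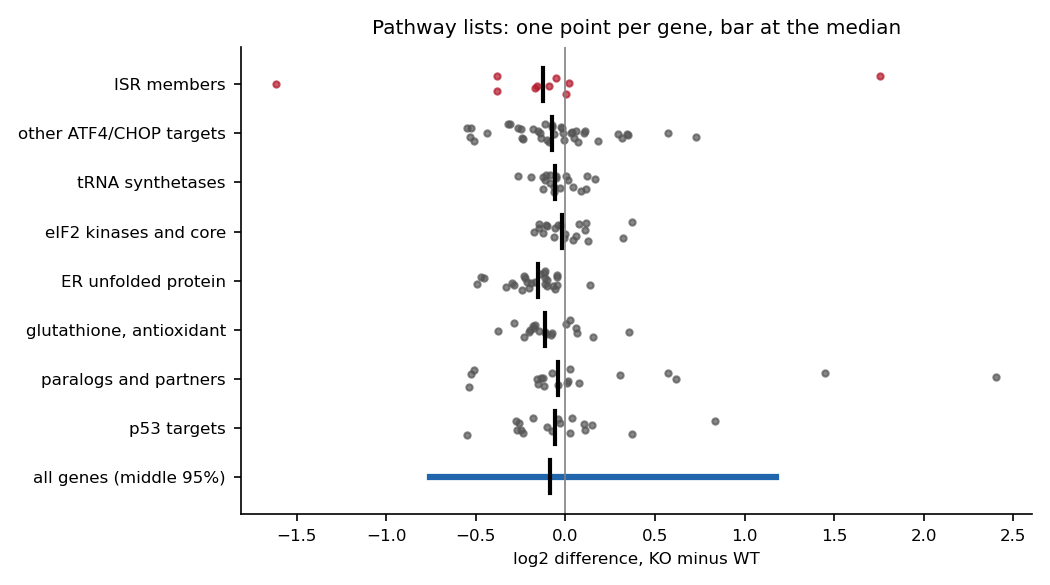
Log2 difference KO minus WT (x axis) of every tested gene in each pathway list, with a bar at the list's median; the blue line spans the middle 95% of all 22822 genes. Chac1 (1.75) and Gdf15 (−1.61) lie outside that span, −0.75 to 1.17, as do Ddit4l (1.45) and Mstn (2.40) among the relatives, and the list medians lie between −0.16 and −0.02.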

How the data were processed

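The authors deposited spot intensity values as written by Agilent Feature Extraction 11.5.1.1, per the file headers (background-subtracted and detrended within the array, not scaled between arrays, grid build mm9), with deposited flags for background, saturation and outliers. They also deposited a table of log2 values (column medians 6.80), and limma is named in the submitters' processing notes with no further detail. Its columns followed the scanner array of the same number in the other group (r = 0.942 to 0.964 over 27351 probes) and not the array in their heading (−0.594 to −0.215), and it placed Sox4 at 9.46 under KO headings and 6.90 under WT headings. It was therefore not used for any comparison.

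Levels were computed here from the scanner files as log2 processed signal, with the 75th percentile of an array's non-control probes subtracted and unflagged spots averaged (31 of 55681 probes were left out). Accessions were matched without versions to RefSeq symbols (GRCm38.p6), naming 27497 probes. A probe was kept where every array of KO, or every array of WT, had it well above background, and the brightest kept probe stood for a gene. The comparison used limma 3.58.1 under R 4.3.3 (lmFit, eBayes, no covariate, two-sided, Benjamini-Hochberg over 22822 genes, threshold 0.05), which was tested on simulated data; SEs are limma's. Slides were read from the array barcodes and coincide with scans. The members and lists were chosen with earlier results of these data known. Genes named are Sox4, the members, up to 4 of each pathway list by smallest p, paralogs of members, and the 5 most like Chac1 and Gdf15. Some cell type markers and list genes too dim to be tested are named as well. Alternatives covered scaling, background correction, the dim-probe filter, slide, age, the replicate number as a block and left-out arrays.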

Additional observations from a re-analysis of the deposited data

How the results depend on the processing

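Chac1 kept a positive and Gdf15 a negative difference under every alternative run, Chac1 from 0.59 (slide 1) to 3.20 (18-week skins) and Gdf15 from −1.92 (age as a covariate) to −1.04 (normexp and quantile). The median of the 10 members was −0.32 with age as a covariate, 0.18 within slide 1 (all genes 0.022) and −0.41 within slide 2 (all genes −0.11), and −0.24 to 0.0011 with 1 array left out. The count of genes called was 141 with age as a covariate, 15 with median scaling, 2 without the filter on dim probes, 8 with normexp and quantile, 9 with probes well above background on all arrays and 1 when slides were blocked (which gives KO replicate 2 no weight). It was 0 with the replicate number as a block (2217 at an unadjusted p under 0.05, limma) and 0 without KO replicates 1 and 2 (1018 at an unadjusted p under 0.05, limma, with the lone KO skin assumed to vary like WT). With 1 array left out it ran from 2 to 303, the highest being 303 without WT replicate 1 and 88 without KO replicate 3. Same-numbered KO and WT skins did not deviate together (r −0.13, −0.04 and 0.08), which cannot show how the animals relate. The replicate block cannot change a difference, because each number occurs once in each group. Genes without overlap ran from 5700 to 9337 with 1 array left out, and numbered 11195 without KO replicates 1 and 2, and members without overlap ran from 2 to 5 (3 without KO replicates 1 and 2). Calls in the paralog and p53 lists ran from 0 to 1 (Ddit4l and Ccng1, each without WT replicate 1), and the other pathway lists had no call under any alternative. The marker lists were not run under the alternatives. Blocks, covariates and single-slide values give no count of overlap, single-slide values and the 18-week skins no test, and normexp was run on median spot signals because the files used here carry no mean. The cause of these shifts was not tested.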
